A study of Mus musculus with 2 samples.

Results

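The genes described here are 10 members of the Notch pathway: the receptors Notch1, Notch2, Notch3 and Notch4, the ligands Dll1, Jag1 and Jag2, and the targets Hes1, Hes5 and Hey1. They were taken by symbol from the gene tables of 2 RNA-seq libraries, joined on the symbol column, which together list 16302 genes. A row was found for 9 of the 10 genes, in both tables each time. Hes5 had no row under its symbol in either table and was not analysed here.

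Astrocytes were cultured from the adult dentate gyrus (DG), the part of the hippocampus where new neurons are born, of C57BL/6 mice (C57BL/6J background in the study's methods) that were either wild type (WT) or β-arr1-/- (KO), a knockout of the β-arrestin 1 gene that the labels tie to no single cell type. β-arrestin 1, encoded by Arrb1, is a scaffold protein of G-protein coupled receptor signalling. Total RNA of the cultured cells gave 1 library of pooled cDNA per genotype, and the labels name no treatment for either genotype. With 1 library on each side, the spread between animals or cultures is not measured and no p-value can be given for genotype.

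Notch receptors are single-pass membrane proteins that are switched on by ligands of the Delta and Jagged type on a neighbouring cell. Binding exposes the receptor to cleavage by ADAM proteases and then by γ-secretase, and the freed intracellular domain enters the nucleus, where it joins the DNA-binding protein RBPJ and Mastermind-like coactivators. Genes of the Hes and Hey families, which encode basic helix-loop-helix repressors, are the best known targets. In the hippocampus the pathway is known for keeping neural stem cells undifferentiated, and astrocytes carry both receptors and Jag1.

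Values are FPKM as deposited, that is, fragments of a transcript scaled for its length and for the number of fragments mapped in the library. With this scaling, levels of different genes within a library can be set side by side. The tables hold no fragment counts. Depth was therefore read from the steps in which very low values rise, which gave 9.36 M fragments for WT and 9.64 M for KO. All 95% intervals below come from fragments estimated with these depths. They are Clopper-Pearson for the KO to WT ratio of a gene and Poisson for levels. For pairs of genes they are those of a conditional odds ratio. They cover counting error only.

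Arrb1 itself was at 7.62 FPKM in the WT library against 2.72 FPKM in KO, so that the ratio was 0.358 (interval, 0.300 to 0.424), in the direction the labels give. Arrb2, the other β-arrestin gene, was at 31.6 and 23.3 FPKM. The astrocyte marker Gfap was nearly level, at 189 FPKM in WT against 192 FPKM in KO. Genes used here as markers of other cells were also detected, among them the smooth muscle genes Acta2 (2478 and 2469 FPKM) and Tagln (2915 and 2597 FPKM) and the microglial gene Tyrobp (317 and 219 FPKM). Which cells of the cultures gave these values was not tested. In such bulk RNA, fewer cells of a type and less RNA per cell cannot be told apart.

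The promoters of the receptors on either side of a ratio of 1, and that of the classical target Hes5, are printed for reference to the results on them. RefSeq (GRCm38.p6, another build than that of the deposited loci) had promoter windows for 8 of the 10 genes, 9 windows in all because Dll1 had 2. Hes1 and Hey1 had none in that table. Each window runs from 250 bases before to 50 bases after the transcript start, and the 250 bases before the start are shown, 5′ to 3′ on the strand of the gene. Capitals mark the core of the RBPJ motif, TGGGAA, or its reverse complement TTCCCA.
Hes5, chr4:154960673-154960922, plus strand: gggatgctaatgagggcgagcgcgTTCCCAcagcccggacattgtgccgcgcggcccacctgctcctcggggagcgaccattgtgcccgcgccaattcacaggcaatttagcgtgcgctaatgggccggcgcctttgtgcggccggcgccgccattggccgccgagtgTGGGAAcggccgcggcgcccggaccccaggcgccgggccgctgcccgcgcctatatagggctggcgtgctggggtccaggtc
Notch1, chr2:26503823-26504072, minus strand: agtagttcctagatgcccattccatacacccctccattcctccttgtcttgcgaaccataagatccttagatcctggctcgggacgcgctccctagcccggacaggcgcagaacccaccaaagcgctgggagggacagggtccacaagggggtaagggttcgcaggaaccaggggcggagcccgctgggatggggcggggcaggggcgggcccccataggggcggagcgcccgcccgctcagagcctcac
Notch3, chr17:32166891-32167140, minus strand: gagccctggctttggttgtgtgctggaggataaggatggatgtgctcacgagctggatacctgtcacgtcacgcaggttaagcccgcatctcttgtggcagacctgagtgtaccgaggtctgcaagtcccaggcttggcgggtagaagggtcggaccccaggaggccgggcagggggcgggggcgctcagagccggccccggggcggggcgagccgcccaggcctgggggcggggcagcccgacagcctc
The core was searched on both strands. It was found in 1 of the 9 windows, that of Hes5, at 226 bases (minus strand) and 82 bases (plus strand) before the start, and both matches were also matches to the longer GTGGGAA, which contains the core. Among all 32851 windows of the table, 25.6% held the core and 6.38% held the longer form. The receptor windows, Notch1 and Notch3 included, held no match. A match is a description of the letters in this window and not a measured binding site.

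The 4 receptors did not move together between the libraries. Notch1 and Notch4 were higher in the KO library, Notch3 was lower, and Notch2 was level. Their sum was 36.2 FPKM in WT against 39.4 FPKM in KO.

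Notch1 (NCBI gene 18128) lies on chromosome 2 of mm9 from 26313171 to 26359342, on the minus strand, and its longest annotated transcript has 34 exons and 9488 bases. In the KO table its row starts at 26313422. The bounds of the row also differed between the tables for Notch2, Notch3, Jag1, Jag2 and Hes1, for which the WT bounds are given, and no row of the 9 genes overlapped that of another gene. It was at 11.96 FPKM in the WT library against 16.88 FPKM in KO. The KO to WT ratio was 1.41 (interval, 1.30 to 1.53; estimated fragments, 1045 and 1520), and the log2 ratio was 0.50. The intervals of the levels, 11.2 to 12.7 FPKM and 16.0 to 17.8 FPKM, did not overlap.

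Notch2 (NCBI gene 18129), on chromosome 3 from 97817461 to 97954290, was the highest receptor in WT. It was at 14.2 FPKM in WT against 14.5 FPKM in KO, so that the ratio was 1.02 (interval, 0.943 to 1.09). The levels of Notch2 in the libraries differed by less than the counting error.

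Notch3 (NCBI gene 18131), on chromosome 17 from 32257784 to 32303797, is the receptor best known from smooth muscle cells and pericytes of vessels. It was at 9.06 FPKM in WT against 6.66 FPKM in KO. The ratio of 0.735 (log2, -0.44) had bounds of 0.654 and 0.826, with fragments estimated at 670 and 507, and Notch3 was the receptor with a ratio furthest below 1.

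Notch4 (NCBI gene 18132), on chromosome 17 from 34701240 to 34725488, is the receptor best known from endothelial cells. It was the lowest receptor in both libraries, at 0.944 FPKM in WT against 1.41 FPKM in KO. Its ratio of 1.49 was the highest of the 9 listed genes, and with an estimated 57 and 88 fragments its interval was wide, from 1.06 to 2.12. The intervals of its levels, 0.715 to 1.22 FPKM and 1.13 to 1.74 FPKM, overlapped. With a pseudocount of 1 FPKM added to both libraries the ratio was 1.24.

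**Figure D1:**
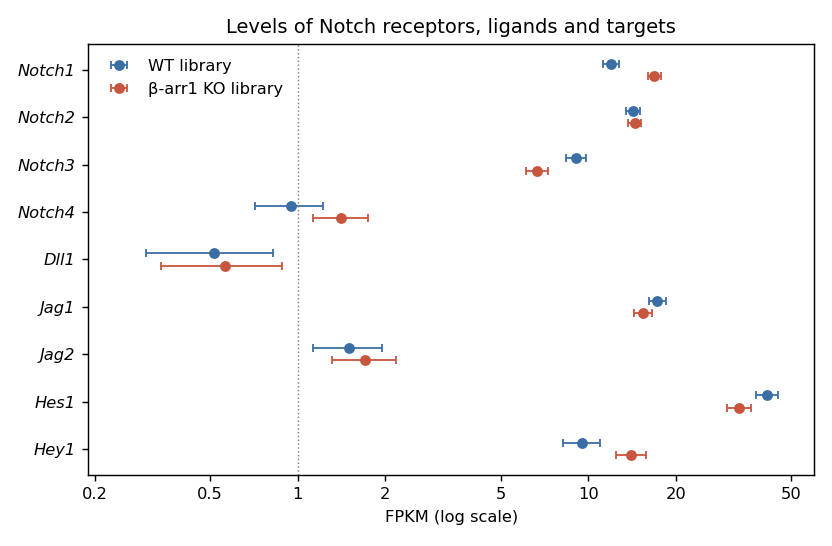
Levels of the 9 listed Notch genes in FPKM (log axis) in the WT library (blue) and the β-arr1 KO library (red). Points are the deposited values of 1 library each, bars are 95% Poisson intervals for counting error, and the dotted line marks 1 FPKM. Notch1 and Hey1 lie to the right in KO without overlap of the bars, Notch3 and Hes1 lie to the left, and the bars of Notch2, Notch4, Dll1, Jag1 and Jag2 overlap.

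The unequal ratios gave the receptors another order and another composition. In WT, Notch2 made up 39.3% of the receptor sum, Notch1 33.0%, Notch3 25.0% and Notch4 2.61%. In KO, Notch1 was the first with 42.8%, followed by Notch2 with 36.7%, Notch3 with 16.9% and Notch4 with 3.58%. Ratios between genes of 1 library do not depend on how the libraries are scaled to each other. The level of Notch1 over that of Notch2 was 0.840 in WT and 1.17 in KO, a 1.39-fold difference (interval, 1.25 to 1.55). Notch1 over Notch3 was 1.32 in WT and 2.53 in KO, which differed 1.92-fold (interval, 1.67 to 2.21). Notch2 over Notch3 differed by 1.38-fold (interval, 1.20 to 1.59). These 3 receptor pairs, and the Hey1 and Hes1 pair described with the targets, were chosen after the values were seen, and their intervals hold counting error alone. Notch1 has 14 annotated transcripts, and if the shortest coding one, of 512 bases, is assumed, the interval of Notch1 over Notch2 runs from 0.910 to 2.14 and includes 1.

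Jag1 was the main ligand in both libraries and was slightly lower in KO. It made up 89.6% of the sum of Dll1, Jag1 and Jag2 in WT, a sum of 19.3 FPKM, and 87.2% of 17.7 FPKM in KO. Jag1 (NCBI gene 16449) lies on chromosome 2 from 136907187 to 136942256. It was at 17.3 FPKM in WT against 15.4 FPKM in KO. The ratio was 0.891 with bounds of 0.809 and 0.981, for 883 and 811 estimated fragments.

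Jag2 (NCBI gene 16450), the other Jagged ligand, on chromosome 12 from 114146411 to 114167706, was far lower than Jag1. It was at 1.50 FPKM in WT against 1.70 FPKM in KO, so that the ratio was 1.13 (interval, 0.778 to 1.65). Dll1 (NCBI gene 13388), a Delta-like ligand of neural precursors, on chromosome 17 from 15504318 to 15512787, was at 0.515 and 0.563 FPKM, and with an estimated 17 and 19 fragments its ratio of 1.09 had an interval of 0.539 to 2.24. No difference was detectable for Jag2 or Dll1 at this depth. Of the Delta-like paralogs, Dll4 was at 0.0958 FPKM in WT against 0.249 FPKM in KO, an estimated 3 and 9 fragments. Dll3, which acts mostly against Notch signalling, was listed in KO alone, at 0.102 FPKM or an estimated 2 fragments.

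The target genes diverged. Hes1 was lower and Hey1 was higher in the KO library. Hes1 (NCBI gene 15205), a repressor of proneural genes that oscillates in neural stem cells, lies on chromosome 16 from 30064574 to 30067882 on the plus strand. It had the highest level of the 9 listed genes in both libraries, 41.3 FPKM in WT against 33.1 FPKM in KO. The ratio was 0.802 (interval, 0.703 to 0.914; log2, -0.32), and the intervals of the levels, 37.8 to 45.0 FPKM and 30.0 to 36.4 FPKM, did not overlap.

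Hey1 (NCBI gene 15213), a repressor known from vessels, heart and neural precursors, lies on chromosome 3 from 8663359 to 8667038 on the minus strand. It was at 9.48 FPKM in WT against 14.0 FPKM in KO. The ratio of 1.48 (log2, 0.56) rested on an estimated 182 and 277 fragments, with an interval of 1.22 to 1.79. The level of Hey1 over that of Hes1 was 0.230 in WT and 0.424 in KO, a 1.84-fold difference (interval, 1.46 to 2.33). Hey1 made up 18.7% of the sum of both in WT (50.8 FPKM) and 29.8% in KO (47.1 FPKM).

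Hes5, the target whose promoter window held the RBPJ core, had no row. On mm9 the GENCODE annotation places it on chromosome 4 from 154335032 to 154336480, and no row of another gene overlapped that span in either table. Of the paralogs, Hey2 was level at 5.15 FPKM in WT against 5.09 FPKM in KO, and the ratio was 0.988 (interval, 0.758 to 1.29). Hes7 was at 0.793 FPKM in WT against 1.15 FPKM in KO, with an interval of 0.662 to 3.30. Heyl was at 0.120 and 0.281 FPKM, an estimated 5 and 12 fragments, with an interval that also included 1.

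In the WT library the order of levels was Hes1, Jag1, Notch2, Notch1, Hey1, Notch3, Jag2, Notch4 and Dll1. The neighbours Hey1 and Notch3, Jag2 and Notch4, and Notch4 and Dll1 did not differ beyond the counting error. In KO, Notch1 stood next to Hes1, above Jag1 and Notch2, and the order of the other 8 genes was as in WT. There the neighbours Notch1 and Jag1, Jag1 and Notch2, Notch2 and Hey1, and Jag2 and Notch4 overlapped. Hes1 was above 88.8% of the genes listed in WT and 85.5% of those listed in KO. Notch1 was above 62.9% and 71.8%, Notch3 above 55.9% and 48.0%, and Dll1 above 16.2% and 16.6%.

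**Figure D2:**
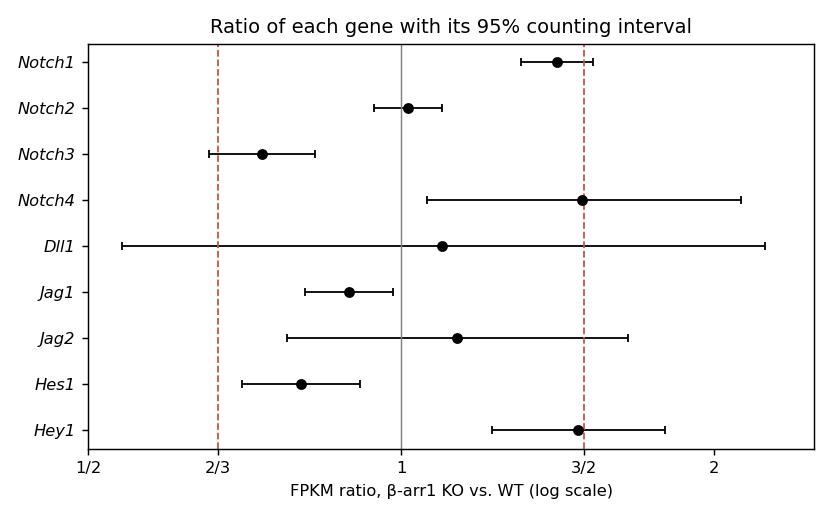
Ratio of FPKM, β-arr1 KO over WT (log axis), for the 9 listed Notch genes. Points are the ratios and bars their 95% intervals for counting error, and dashed lines mark the limits 3/2 and 2/3. The 9 points lie between 0.735 (Notch3) and 1.49 (Notch4), inside both limits.

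The limits used to call a gene altered, in the study and here, are ratios above 3/2 or below 2/3. Of the 8 Notch genes that reached 1 FPKM in either library (Dll1 fell short of it), 0 were above 3/2 and 0 were below 2/3. Over all 12646 genes analysed in the same way, 17.8% were past either limit, 9.56% above the upper and 8.28% below the lower. The share was 14.6% among the 12171 genes listed in both tables, and 10.1% among the 9145 of those that reached 5 FPKM in either library. At shares of this size, a count of 0 in 8 genes says little about the Notch genes as a group. Within the limits, 5 of the 8 were higher in KO, and the median ratio was 1.07, a median log2 ratio of 0.10, beside 0.02 over the genes listed in both tables. Intervals without 1 were found for 6 of the 8, with Notch1, Notch4 and Hey1 above 1 and Notch3, Jag1 and Hes1 below. The same held for 40.8% of the 11838 genes listed in both tables that reached 1 FPKM in either and had an estimate of at least 1 fragment in each. An interval narrows as fragments increase, and the count is not read as particular to the Notch genes. Notch4 and Hey1 lay just below the upper limit.

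**Figure D3:**
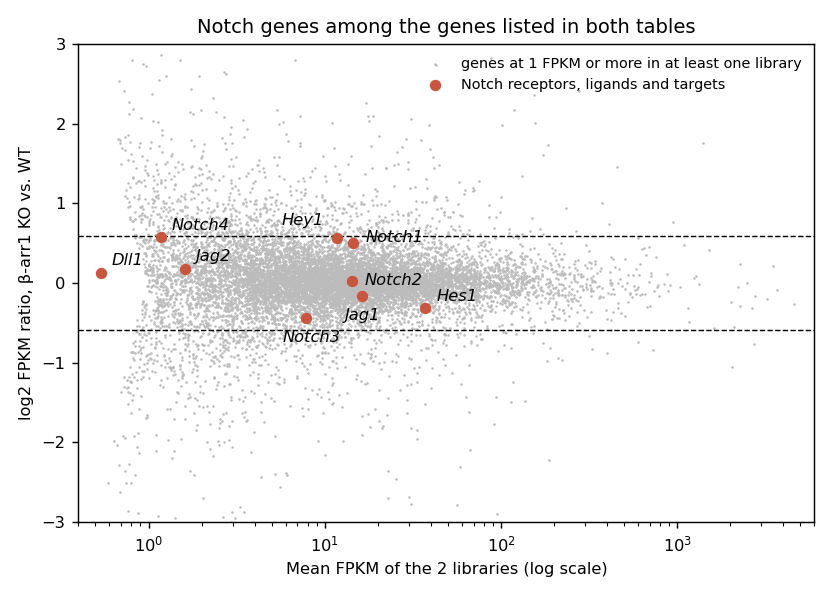
Log2 ratio of FPKM (β-arr1 KO vs. WT) against the mean FPKM of both libraries (log axis). Grey points are 12171 genes that reached 1 FPKM in either library and were listed in both tables, of which 43 lie outside the plot. Red points are the 9 listed Notch genes, with Dll1 below 1 FPKM, and dashed lines mark 3/2 and 2/3. The Notch genes lie inside both lines, with Notch4 and Hey1 next to the upper one.

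The wider pathway was described with lists of 81 genes ordered by role, the 10 genes included. Of these, 67 reached 1 FPKM in either library, 5 were above 3/2, 3 were below 2/3, and the median ratio was 1.00. The 8 genes past the limits are 11.9% of the 67, a share not above the 17.8% of all genes analysed. Of the 8 genes past the limits, 5 were among the 6 other Notch-binding proteins. No other list had more than 2. The lists were chosen with earlier results of these data known, so this concentration is not read as a result about the pathway.

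The other Notch-binding proteins are membrane or matrix proteins that bind Notch without the full make-up of a Delta or Jagged ligand, and all 6 were analysed. Dner, a neuronal and glial surface protein, was at 15.1 FPKM in WT against 24.7 FPKM in KO, so that the ratio was 1.63 (interval, 1.46 to 1.83). Cntn1, an adhesion molecule known from neurons and oligodendrocyte precursors, was at 5.87 FPKM in WT against 9.46 FPKM in KO, and the ratio was 1.61 (interval, 1.39 to 1.86). These 2 surface proteins were higher in KO by a like factor.

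Dlk2, a Delta-like protein that lacks the usual receptor-binding domain, was at 2.49 FPKM in WT against 5.08 FPKM in KO, so that the ratio was 2.05 (interval, 1.37 to 3.09). Its row overlaps that of Abcc10 (2.02 and 2.21 FPKM), and the ratio was 1.62 when the overlapping rows were summed. Its paralog Dlk1 was within the limits, at 2.84 and 4.10 FPKM and a ratio of 1.44 (interval, 1.14 to 1.84).

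The microfibril proteins went the other way. Mfap5 was at 14.7 FPKM in WT against 7.47 FPKM in KO, so that the ratio was 0.507 (interval, 0.418 to 0.612). Mfap2 was at 8.18 FPKM in WT against 3.56 FPKM in KO, and the ratio was 0.435 (interval, 0.277 to 0.670) from an estimated 71 and 32 fragments. Both are matrix genes of fibroblasts and related cells, and the fibroblast markers were lower in the same library. Of the 7 fibroblast markers analysed, 5 were below 2/3 (Col1a1, Col1a2, Dcn, Col3a1 and Fbln1), Pdgfra was above 3/2, and the sum of the 8 listed was 634 FPKM in WT against 337 FPKM in KO. Their part in the values of Mfap2 and Mfap5 was not tested.

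**Figure D4:**
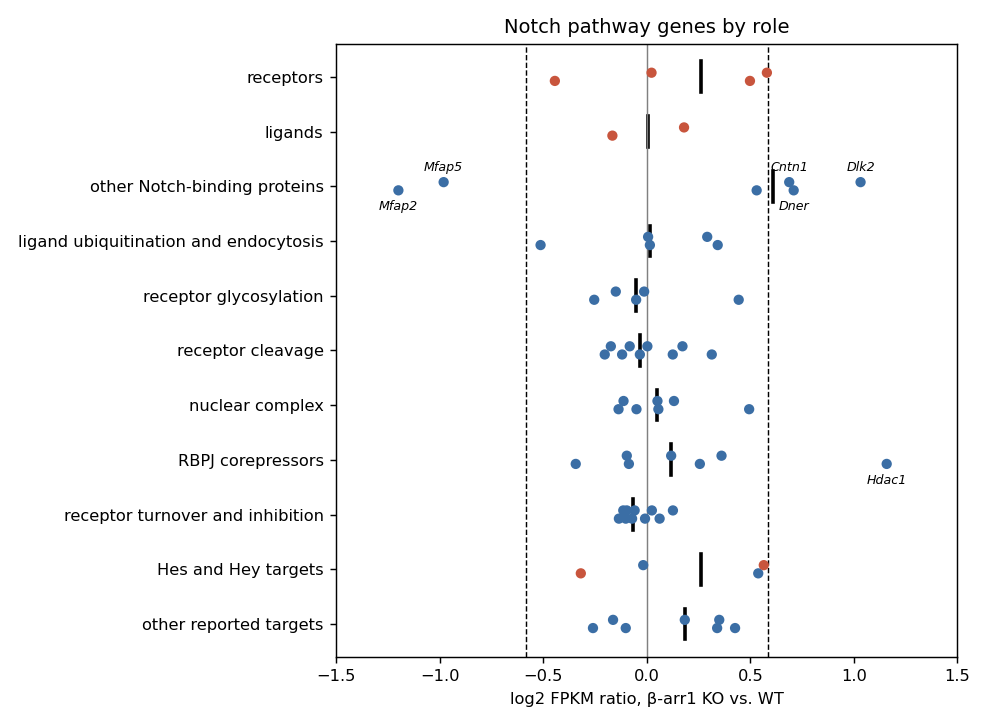
Log2 ratio of FPKM (β-arr1 KO vs. WT) of the pathway genes analysed and listed in both tables, 1 line per role. Each point is a gene, red for the Notch genes described above and blue for others, and black bars are medians. Names are given for genes past the dashed limits (3/2 and 2/3), and the medians of the core machinery lists lie close to 0. The other Notch-binding proteins are on both sides, from Mfap2 at 0.435 to Dlk2 at 2.05.

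The core machinery had a median ratio close to 1. Single ratios ran from 0.701 to 2.23 among the 43 machinery genes analysed and listed in both tables. Of these 43, 13 had intervals without 1, beside 40.8% of all genes examined in that way. Over the lists for ligand endocytosis, receptor glycosylation, cleavage, the nuclear complex, corepressors and turnover, 45 of 47 genes were analysed, 2 were above 3/2 and 1 was below 2/3, and the median ratio was 0.991. In the ligand-sending cell, Mib1, the ubiquitin ligase that starts endocytosis of ligands, was at 12.4 and 15.1 FPKM (ratio 1.22), and its relative Mib2 was at 10.4 and 7.32 FPKM (ratio 0.701, interval 0.592 to 0.828). The endocytic adaptors Epn1 (41.9 and 42.3 FPKM) and Epn2 (12.6 and 12.7 FPKM) were level.

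All 5 glycosyltransferase genes were within the limits, with a median of 0.965. Pofut1, which adds O-fucose to the receptors, was at 13.0 FPKM in WT against 11.7 FPKM in KO, and Poglut1, which adds O-glucose, was at 21.9 and 21.7 FPKM. Lfng, the fringe enzyme that tunes the response to Delta and Jagged ligands, was at 11.0 and 9.23 FPKM, with an interval of 0.687 to 1.02.

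The ratios of the 9 cleavage genes analysed ranged from 0.869 to 1.24. Furin, which cuts the receptor on its way to the surface, was at 40.5 and 35.1 FPKM. Adam10, the ligand-dependent sheddase, was at 43.0 and 46.9 FPKM, a ratio of 1.09. Ncstn, the γ-secretase subunit with the highest level, was at 88.7 and 86.7 FPKM. Aph1c had no row under its symbol.

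In the nucleus, Rbpj was at 18.5 FPKM in WT against 16.8 FPKM in KO, so that the ratio was 0.910 (interval, 0.829 to 0.999). The coactivators were within the limits, from Snw1 at 33.6 and 32.4 FPKM to the acetyltransferase gene Kat2b, which had the highest ratio of the complex, 1.41 (interval, 1.21 to 1.64), at 7.12 and 10.0 FPKM. Among the corepressors, Ctbp1 had the highest level, 56.3 and 61.1 FPKM. Hdac1, a histone deacetylase of this and many other repressor complexes, was the gene past the limits with values in both tables, at 12.2 FPKM in WT against 27.2 FPKM in KO. Its ratio was 2.23 (interval, 1.90 to 2.63) from an estimated 216 and 496 fragments.

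The other calls of the machinery lists came from genes with a row in 1 table. Tle2, a Groucho corepressor, was listed at 4.96 FPKM in WT and had no row in KO, where the row of the neighbouring gene Aes (295 FPKM in WT against 252 FPKM in KO) covers its locus. Itch, a ubiquitin ligase that acts on Notch, was listed at 14.9 FPKM in KO and had no row in WT, where the row of Dynlrb1, at 211 FPKM, begins at the start of Itch, on chromosome 2 at 154959217. The fragments of these genes and of their neighbours were not separated in the same way in both tables, and no ratio is given. The other turnover genes were within the limits, with Dtx3 at 25.3 and 23.1 FPKM and Numbl, a homolog of the Notch inhibitor Numb, at 22.9 and 21.4 FPKM.

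Of the other reported targets, 7 of 8 were analysed and 0 were past the limits, with a median ratio of 1.14. Ccnd1, which encodes cyclin D1, was at 541 FPKM in WT against 727 FPKM in KO, so that the ratio was 1.34 (interval, 1.32 to 1.37). The cell cycle inhibitor gene Cdkn1a was at 386 and 344 FPKM, a ratio of 0.893. Nes, the intermediate filament of neural precursors, was at 121 and 153 FPKM, a ratio of 1.27. Nrarp, a feedback inhibitor often read as a direct target, was at 1.05 and 0.975 FPKM, and its interval of 0.503 to 1.72 included 1. Fabp7 had no row under its symbol.

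The proneural genes, which Hes factors repress, had low values or no row, and 0 of 6 reached 1 FPKM. Neurod1 was at 0.0451 and 0.132 FPKM, Neurog1 was listed in KO alone at 0.0681 FPKM, and Neurog2, Atoh1 and Insm1 had no row. No difference of a proneural gene was detectable at this depth.

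Notch receptors and ligands are shared with other cell types, so the markers of these cells were set beside them. Their counts past the limits are to be read beside the 9.56% of all genes above 3/2 and the 8.28% below 2/3. For endothelial cells, the best known site of Notch4, 9 of 10 markers were analysed, 3 were above 3/2 and 1 was below 2/3, and the median ratio was 1.44. Pecam1 was at 3.03 and 5.22 FPKM (ratio 1.72) and Flt1 at 4.07 and 6.97 FPKM (ratio 1.71), both past the upper limit. Erg was also past it (ratio 1.75), but from an estimated 20 and 36 fragments its interval, 0.985 to 3.19, included 1. Kdr (ratio 1.44) and Vwf (ratio 1.497) were higher and within the limit. Tie1 also had a ratio of 1.44, with an interval of 0.912 to 2.31 that included 1. Cldn5 had a ratio of 0.672 (interval, 0.253 to 1.70), and Tek, under 1 FPKM in both libraries, one of 0.686 (interval, 0.372 to 1.25). Cdh5 was the marker below 2/3, at 31.8 FPKM in WT against 16.1 FPKM in KO (ratio 0.507). Esam was at 35.6 and 41.6 FPKM, and the summed level of the list was 83.0 and 81.1 FPKM. The part of endothelial cells in the value of Notch4 was not tested.

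For mural cells, the best known site of Notch3, the summed level was 5498 FPKM in WT against 5205 FPKM in KO and the median ratio of the 7 markers analysed was 0.996. Nearly all of this sum came from Acta2 and Tagln, so it says little about the other markers of the list and is not a measure of mural cells. Rgs5, a pericyte marker, was the gene of this list below 2/3, at 5.83 and 3.58 FPKM (ratio 0.615). Anpep was also lower, at 4.74 and 3.43 FPKM, with a ratio of 0.723. Myh11 (ratio 1.402), Des (1.41) and Cspg4 (1.41) were higher within the limits, with intervals above 1. Acta2 and Tagln, given above, had ratios of 0.996 and 0.891, while Pdgfrb and Kcnj8 had no row under their symbols. Abcc9 was near the floor, at 0.0291 FPKM in WT against 0.0843 FPKM in KO. The part of mural cells in the lower level of Notch3 was not tested.

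The astrocyte list summed to 396 FPKM in WT against 420 FPKM in KO, and 4 of its 10 genes (Slc1a2, Aqp4, S100b and Aldoc) were above 3/2. Glul, the glutamine synthetase gene, was at 83.3 and 61.8 FPKM. Markers of the oligodendrocyte lineage summed to 81.8 and 118 FPKM, with 4 of 7 above 3/2 (Pdgfra, Olig1, Olig2 and Sox10), and the median ratio was 1.71. The list for neural precursors and neurons, cells that also carry Notch1 and Hes1, summed to 207 and 267 FPKM, with Sox2 at 24.4 and 38.8 FPKM (ratio 1.59) past the limits and Dcx, which marks young neurons, listed in KO alone at 0.0348 FPKM. Microglial markers summed to 809 FPKM in WT against 605 FPKM in KO, with a median ratio of 0.831 and Cd68 below 2/3 (185 and 119 FPKM). Across these lists, Notch1 and Hey1 were higher in the library in which markers of astrocytes, the oligodendrocyte lineage and neural precursors were higher. The part of each in the Notch values was not tested.

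**Figure D5:**
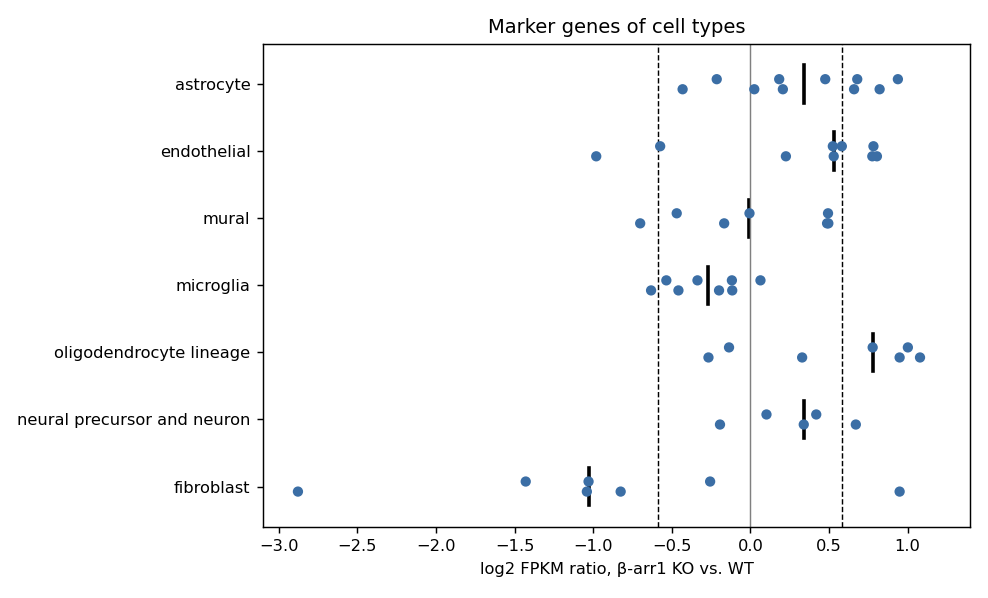
Log2 ratio of FPKM (β-arr1 KO vs. WT) of cell type markers analysed and listed in both tables, 1 line per cell type. Each point is a gene, black bars are medians, and dashed lines mark 3/2 and 2/3. Oligodendrocyte lineage and endothelial markers lie mostly to the right, fibroblast markers mostly to the left, and mural markers on both sides of 0.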

How the data were processed

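Total RNA of cultured DG astrocytes was sequenced as 1 library per genotype. The authors deposited FPKM values per gene symbol, with NCBI gene number and locus, after alignment to mm9 with TopHat 1.4.0 (per the labels) and estimation with Cufflinks. Starts were raised by 1, since 38.3% (WT) and 38.6% (KO) of starts then equalled those of GENCODE NCBIM37, against 3.07% and 3.11% as written.

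The highest row per symbol was kept. The KO to WT ratio was taken without a pseudocount for genes that reached 1 FPKM in either library, and the limits were 3/2 and 2/3. No p-value was computed. A gene listed in 1 table was given 0 in the other.

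Depth came from genes below 0.15 FPKM with 1 annotated transcript longer than 1000 bases, 425 in WT and 448 in KO, of which 68.0% and 68.5% were within 5% of a step of 1, 2 or 3 fragments. Fragments per gene used the longest GENCODE transcript less 150 bases. Intervals miss reads shared between genes, differences of transcript length and the spread between cultures.

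The 10 genes and the lists were chosen with earlier results of these data known. Named genes were these, Arrb1, their paralogs, pathway genes past the limits with an interval without 1, the 2 highest of each list and genes at 0. Other genes named (Arrb2, neighbours of the overlapping rows, marker genes past the limits and some genes known for their role) were chosen after their values were seen. The computation was tested on simulated data. Alternatives were other minimums, pseudocounts, limits and scalings, summed rows, equal locus bounds and the shortest coding transcript. Protein sequences were not used here. Some genes of the lists that the rule would name are not reported here. Software was Python 3.11.15 with scipy 1.17.1, pandas 2.3.3, numpy 2.4.6 and, for plots, matplotlib 3.10.9.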

Additional observations from a re-analysis of the deposited data

How the results depend on the processing

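The number of Notch genes past the limits was 0 under each alternative run, with 2 to 9 genes analysed. Ratios of the Notch genes, and of the pathway genes past the limits with values in both tables, kept their direction and their side of the limits, and those of the Notch genes ranged from 1.38 to 1.42 for Notch1, 0.726 to 0.761 for Notch3, 0.792 to 0.806 for Hes1, 1.43 to 1.48 for Hey1 and 1.24 to 1.499 for Notch4, the last at its lowest with a pseudocount of 1 FPKM. Of the pathway lists, 8 genes were past the limits, against 5 with limits of 2 and 1/2, 14 with no minimum and 4 with genes of the same locus bounds in both tables, where 39 genes were analysed. A minimum of 5 FPKM in either library gave 7, and a minimum of 1 FPKM in both libraries gave 6. Fewer or more genes tested, or wider limits, are part of how these alternatives are built. Summing overlapping rows gave 6 with 67 genes analysed, and Itch and Tle2 were not among these 6. The scalings shifted all log2 ratios by 0.0044 (total), -0.02 (median ratio) and -0.02 (upper quartile). With the shortest coding transcript, 5 instead of 6 intervals of the Notch genes left out 1, the exception being Notch1 (0.932 to 2.16), and 9 instead of 7 pairs of neighbours by level overlapped. No paired analysis was possible because each genotype has 1 library, and for the same reason no replicate could be left out. Depth limits the genes with few estimated fragments, among them Dll1 (17 and 19), Dll4 (3 and 9) and Heyl (5 and 12), whose ratio intervals are wide and include 1.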
